A study of Mus musculus with 12 samples.

Results

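Mouse embryonic stem cells that had been given doxycycline to switch on mDUX, but had not lit up a MERVL reporter, were set against uninduced cells given under the same transgene and reporter. Every row shared by the deposited table of sorted cells and that of unsorted cells entered the comparison, 29082 rows in all, of which 27590 were genes and 1492 were repeat families. It used 4 of the 12 libraries of the series: 2 of GFP-negative cells, which had 24 h of doxycycline and were separated by FACS, and 2 of uninduced cells, which had no doxycycline and were not sorted. Alongside stood 2 libraries of GFP-positive cells from the same sort and 2 of unsorted cells with 24 h of doxycycline. The labels give all 8 as stable cells with a doxycycline-inducible lentiviral transgene for codon-altered mDux carrying a 3xHA tag, and a MERVL::EGFP reporter. All were grown in serum, leukemia inhibitory factor and 2i under puromycin and G418, and read as 125 bp paired-end reads. The table and the sort changed together with the induction in this comparison, so their effects cannot be told apart. As a model the line has further limits: it was expanded from single cell clones, no culture had doxycycline without the transgene, the labels do not tell if both libraries within a group were grown apart, and every p-value rests on a spread that could be technical.

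DUX is a double-homeobox transcription factor of the early embryo that switches on genes of the 2-cell stage, when the mouse embryo starts its own transcription. Among its targets are the Zscan4 cluster and the endogenous retrovirus MERVL, whose long terminal repeat, MT2_Mm, acts as a promoter in 2-cell embryos and in the rare 2-cell-like cells of stem cell cultures. Cells that receive DUX respond unevenly, and a MERVL reporter separates those that enter the 2-cell-like state from those that do not.

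The promoters of 3 Zscan4 genes are shown because these genes gave some of the clearest differences between GFP-negative and uninduced cells. They are RefSeq promoters (GRCm38.p6), from 250 bases before to 50 bases after the gene's start, and all lie on chromosome 7: Zscan4c on the plus strand (chr7:11005495-11005794), Zscan4d on the minus strand (chr7:11166099-11166398) and Zscan4f on the plus strand (chr7:11397665-11397964). The capitals mark a match to TGATT followed, after 2 bases of any kind, by ATCA, read on the strand opposite to the gene.
Zscan4c: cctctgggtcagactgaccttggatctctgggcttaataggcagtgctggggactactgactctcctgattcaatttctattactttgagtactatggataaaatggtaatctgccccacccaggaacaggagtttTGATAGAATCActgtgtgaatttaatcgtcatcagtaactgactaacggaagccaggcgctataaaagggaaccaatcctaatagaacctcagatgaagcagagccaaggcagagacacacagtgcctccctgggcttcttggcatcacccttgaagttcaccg
Zscan4d: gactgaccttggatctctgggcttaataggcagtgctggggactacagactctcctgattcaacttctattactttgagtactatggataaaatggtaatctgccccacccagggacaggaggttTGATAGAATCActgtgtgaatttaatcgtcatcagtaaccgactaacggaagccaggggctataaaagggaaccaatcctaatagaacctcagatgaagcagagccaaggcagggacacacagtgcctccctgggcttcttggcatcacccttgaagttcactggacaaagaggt
Zscan4f: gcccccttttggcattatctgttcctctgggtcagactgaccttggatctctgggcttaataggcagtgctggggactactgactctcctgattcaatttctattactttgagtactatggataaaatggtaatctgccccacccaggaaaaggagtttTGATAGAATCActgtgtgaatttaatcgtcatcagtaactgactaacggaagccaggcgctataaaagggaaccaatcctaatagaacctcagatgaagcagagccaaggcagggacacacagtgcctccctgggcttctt
The match began 114, 125 and 91 bases before the start of Zscan4c, Zscan4d and Zscan4f, in that order, and its letters were the same in all 3. Of 4 spellings searched on both strands of 32851 promoters, this one was found in 0.207%, TGATT with 1 base before AATCA in 0.0335%, TAAT with 2 bases before AATCA in 0.35% and TAA with 3 bases before AATCA in 1.03%. Of 38 promoters of 36 cleavage-stage genes, 4 held the first spelling, all of them Zscan4 genes, and none held another. The spellings overlap one another, and a match is a description of letters only.

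The tables differed in several broad features. Gene reads came to 51358607 and 50873444 in the GFP-negative libraries, against 14208016 and 15468715 in the uninduced ones. All 30 mitochondrial genes were listed at 0 in all 4 unsorted libraries, while the GFP-negative libraries held 245849 and 261585 mitochondrial reads. The reverse held for the Y chromosome: 8 protein-coding Y genes, Erdr1 left aside, had no read in any sorted library, whereas Ddx3y, an RNA helicase, had 1753 and 2066 reads in uninduced cells. Pseudogenes took 3.47% and 3.6% of gene reads in GFP-negative cells, against 15.9% and 15.6% in uninduced cells. Whether the sorted and unsorted cells were the same clone is not told by the labels, and neither that nor a difference in counting was tested as a part of the results. Many of the results are therefore printed beside the same quantity for GFP-positive over induced unsorted cells, called the parallel comparison here. It crosses the same pair of tables and shares no library with the main one. Where it is not printed, the change may be shared with it.

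**Figure D1:**
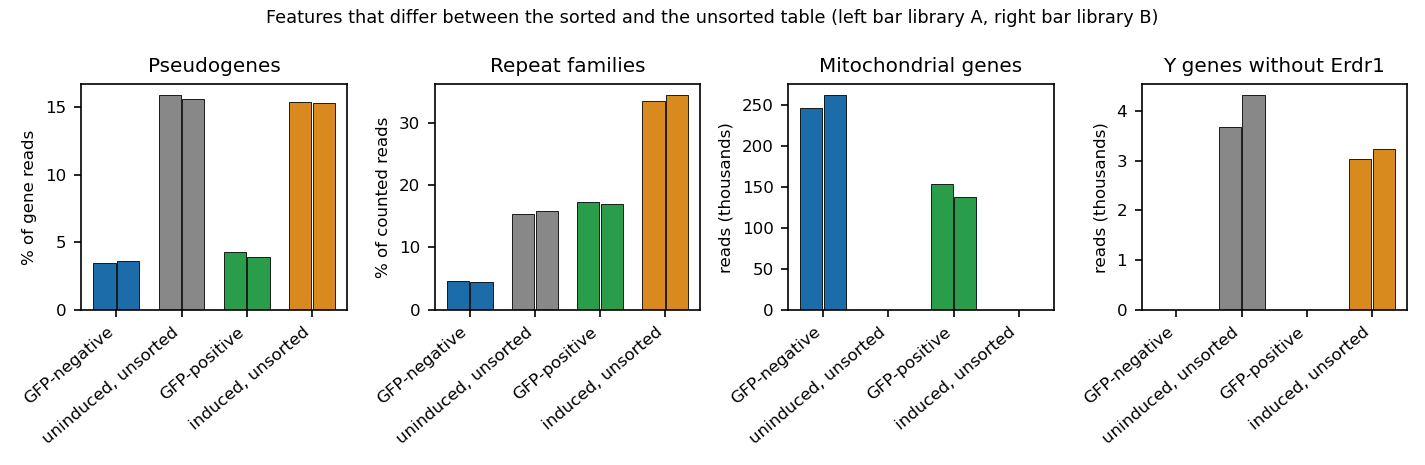
The panels show 4 features of the 8 libraries: the share of gene reads on pseudogenes and of counted reads on repeat families (percent), and the reads on mitochondrial genes and on protein-coding Y genes other than Erdr1, each bar 1 library. The sorted libraries lie between 3.47% and 4.26% for pseudogenes and the unsorted ones between 15.3% and 15.9%, while Y reads are 0 in every sorted library.

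Over all genes, the GFP-negative and uninduced libraries differed at most loci. Of 17820 genes tested, 7768 (43.6%) were higher and 6096 (34.2%) lower in GFP-negative cells at an adjusted p under 0.05, and the median gene stood at 0.14 on the log2 scale. The split turned with the scaling: with gene totals alone, 5064 were higher and 9120 lower and the median stood at -0.43. Under all 6 scalings and fits compared, 4979 genes (27.9%) were higher and 5743 (32.2%) lower, and counts given below as held under every scaling refer to these 6, or for the difference between comparisons to the 5 that hold all 8 libraries. GFP-positive over induced unsorted cells gave 6733 genes higher (37.8%) and 6949 lower (39.0%), with a median of -0.09. Across the 17820 genes the log2 fold changes of the 2 comparisons had a Pearson r of 0.868, and of 11704 genes past the threshold in both, 11207 had the same sign; the points share the pair of tables. The difference between the 2 comparisons, tested as 1 contrast, was above 0 for 3670 genes (20.6%) and below 0 for 1759 (9.87%), and under every scaling for 1274 (7.15%) and 1639 (9.2%). By construction this difference equals the induced over uninduced log2 fold change within the unsorted table less the GFP-positive over GFP-negative one within the sorted table. Counts of list members given below are to be read against these shares of all genes.

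**Figure D2:**
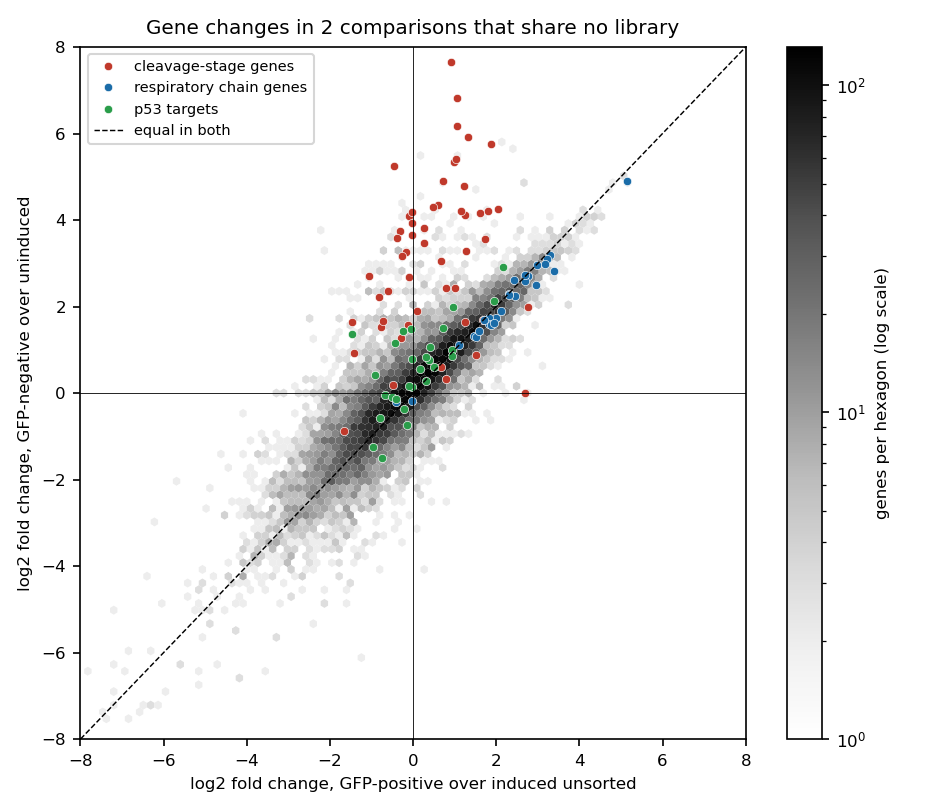
Log2 fold change of each gene in GFP-negative over uninduced cells (vertical) against that in GFP-positive over induced unsorted cells (horizontal), with grey hexagons for all genes and coloured points for 3 lists; 236 genes lie outside the limits of 8. Most genes follow the dashed line of equal change, respiratory chain genes among them, while cleavage-stage genes lie above it.

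Genes of the cleavage-stage embryo departed from that common shift. Of 52 tested members, 43 were higher and 1 was lower in GFP-negative than in uninduced cells, the median being 3.38 on the log2 scale, and 38 were higher under every scaling. Among all genes 43.6% were higher and 34.2% lower. In GFP-positive over induced unsorted cells the same members had 30 higher and 15 lower with a median of 0.64, and the difference between the comparisons was above 0 for 39 and below 0 for 2. Of 66 listed symbols, 55 were in the tables and 52 passed the filter on low counts, and the rest were not analysed here. The filter used all 8 libraries, so members near 0 in both compared groups could pass through the GFP-positive or induced ones. Fitted on the 4 compared libraries alone, 44 members were tested, of which 40 were higher and 1 lower (median 3.20). Near-identical copies exist for Zscan4, Usp17l, Tcstv, Tdpoz, Duxf and Obox genes, and their counts for a single copy are uncertain.

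Zscan4d (chr7:11161374-11166159), a SCAN and zinc-finger gene linked to telomere upkeep in stem cells, had 88.3 and 78.0 CPM in GFP-negative libraries, against 1.61 and 2.27 CPM in uninduced libraries, where CPM are counts relative to the TMM-scaled total of gene reads. The groups did not overlap, and the log2 fold change was 5.41 ± 0.12 (SE; adjusted p = 7.21e-26). Zscan4c (chr7:11005745-11010547) had 53.5 and 51.7 CPM in GFP-negative cells and 2.15 and 3.11 CPM in uninduced cells. Zscan4f (chr7:11397915-11402318) had 48.5 and 44.3 CPM in GFP-negative cells and 0.914 and 0.790 CPM in uninduced cells. The log2 fold changes were 4.31 ± 0.11 for Zscan4c and 5.76 ± 0.14 for Zscan4f, so the 3 genes whose promoters are printed above rose 19.8-fold to 54.3-fold. All 3 remained far below the GFP-positive libraries, where Zscan4d averaged 6918 CPM. Within the sorted table Zscan4d was higher in GFP-positive than in GFP-negative cells by 6.38 on the log2 scale, and within the unsorted table it was higher in induced than in uninduced cells by 10.75.

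Genes outside the Zscan4 cluster behaved alike. Zfp352, a zinc-finger gene of 2-cell embryos, had 4.84 and 5.79 CPM in GFP-negative cells, against 0.215 and 0.345 CPM in uninduced cells (log2 fold change 4.21 ± 0.25). Tcstv3, a 2-cell transcript with no sure function, had 3.03 and 2.89 CPM in GFP-negative cells and 0.108 and 0.0987 CPM in uninduced cells (4.78 ± 0.36). Usp17lc, a deubiquitinating enzyme, had 11.6 and 11.9 CPM in GFP-negative cells and 0.968 and 0.691 CPM in uninduced cells (3.82 ± 0.16). Each of these rose with no overlap between the groups. Sp110, a nuclear body protein, averaged 17.5-fold higher in GFP-negative cells and Arg2, the mitochondrial arginase, 19.0-fold higher. Fam90a1a, AF067063 and Zfp353-ps had no read in either uninduced library. Set against a floor of 3 counts over the uninduced group, GFP-negative cells were at least 13.4-fold higher for Fam90a1a, at least 7.58-fold higher for AF067063 and at least 4.81-fold higher for Zfp353-ps; such floors cover counting error only.

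A few members did not follow. Patl2, an RNA-binding protein of oocytes, had 6.60 and 5.79 CPM in GFP-negative cells, against 11.7 and 11.1 CPM in uninduced cells, and fell (-0.88 ± 0.13), as it did in the parallel comparison (-1.66). The endogenous Dux copy Duxf3 had 0.491 and 0.295 CPM in GFP-negative cells, against 0.269 and 0.148 CPM in uninduced cells, a difference that missed the threshold (log2 fold change 0.92 ± 0.55, adjusted p = 0.13). Obox6, a homeobox gene, missed it as well (0.19 ± 0.24). Fbxo15, an F-box protein already abundant in stem cells, had 567 CPM in each GFP-negative library and 312 and 304 CPM in uninduced cells, which is higher by 0.88 ± 0.06. Zfp809, a zinc-finger repressor of retroviruses, was higher by 0.61 ± 0.06, a call lost with gene totals alone (0.02).

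How much of the GFP-positive programme the GFP-negative libraries held was similar across most members. For each gene the excess of GFP-negative over uninduced CPM was divided by the excess of GFP-positive over uninduced CPM. The median over 51 members was 1.13%, with quartiles at 0.831% and 1.58%. Among 47 members at least 10-fold above the uninduced level in GFP-positive cells, the share ran from 0% for Obox5 to 11% for Pramel7, and 6 of the 47 were above 2%. Zscan4d stood at 1.17%, Zscan4f at 1.44%, Sp110 at 0.878%, Zfp352 at 0.622% and AF067063 at 0.537%. The members above 2% included genes already present without induction: Ddit4l, a stress-induced inhibitor of mTOR signalling, at 9.25% and Fbxo15 at 3.59%. Zfp750, an epidermal zinc-finger gene, had 6.38 and 6.29 CPM in GFP-negative cells and 1.78 and 2.47 CPM in uninduced cells, and its mean in GFP-positive cells was 2.85 CPM. Cpt1c, a brain form of carnitine palmitoyltransferase, likewise averaged 91.0 CPM in GFP-negative cells, above both its 28.0 CPM in uninduced cells and its 74.8 CPM in GFP-positive cells.

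Since these are bulk libraries, a few strongly expressing cells among many silent ones and a low level in all cells cannot be told apart. When 1.135% of each gene's GFP-positive rate was taken from the GFP-negative counts, 19 of the 52 cleavage-stage members were still higher than in uninduced cells, 14 were lower, and the median log2 fold change was 0.17. That share was set from these same genes, so the fall of the median is built in. The direction of each gene afterwards largely follows from its own share, above or below 1.135%, and is no separate finding. After it, Zscan4c kept a log2 fold change of 2.03 and Zscan4f of 3.63, Zscan4d stood at 1.32 without passing, and Zfp352 (-5.80) and Sp110 (-7.03) were lower. The part of carried-over GFP-positive cells in the rise was not tested in any other way.

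**Figure D3:**
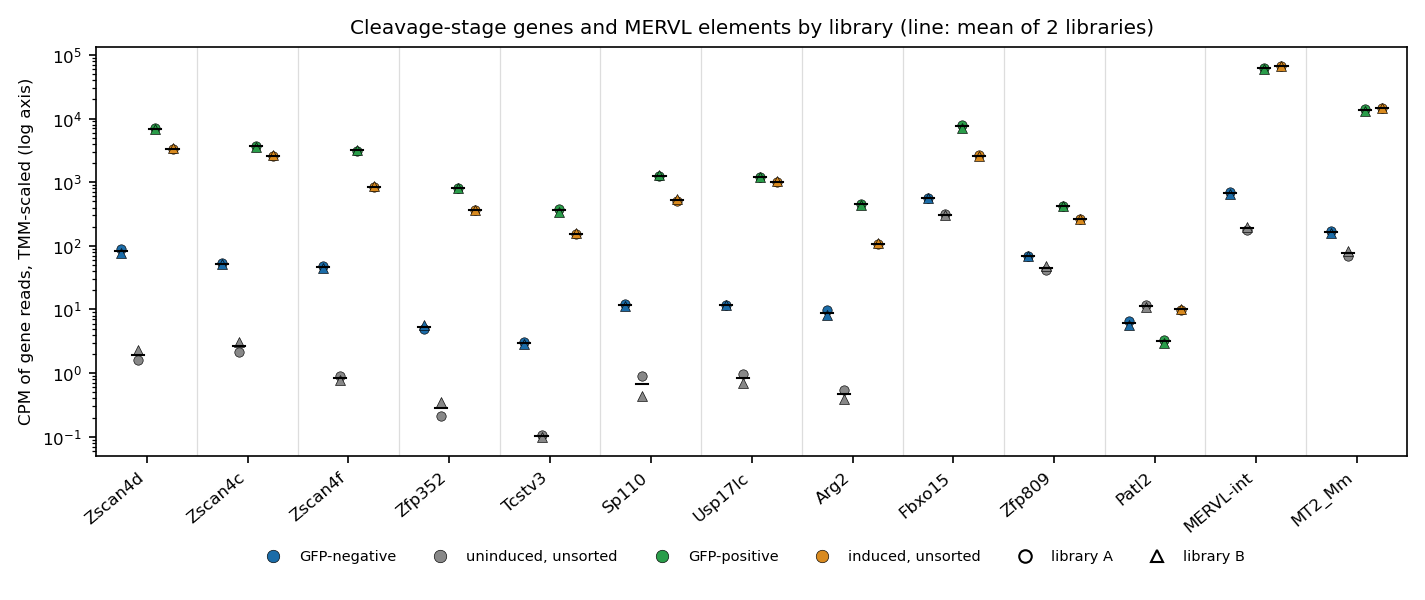
CPM of gene reads (log axis) of 11 cleavage-stage genes, the MERVL interior and its terminal repeat MT2_Mm in each of the 8 libraries, with lines at the means. GFP-negative libraries lie above uninduced ones for all but Patl2, and for Zscan4d at 83.2 against 1.94 CPM, far under the 6918 CPM of GFP-positive cells.

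Repeat families moved as a block toward lower values in GFP-negative cells. Of 1321 families tested, 19 (1.44%) were higher and 1208 (91.4%) lower, with a median log2 fold change of -1.69; GFP-positive over induced unsorted cells had 8 higher (0.606%), 1221 lower (92.4%) and a median of -1.23. Against this shift, the MERVL interior had 695 and 662 CPM of gene reads in GFP-negative cells, against 180 and 195 CPM in uninduced cells. It rose 3.62-fold (log2 fold change 1.86 ± 0.07, adjusted p = 1.65e-20), and MT2_Mm, with 170 and 162 CPM in GFP-negative cells and 70.2 and 81.8 CPM in uninduced cells, rose 2.18-fold. Both held under every scaling, among 4 families that did. Their GFP-positive shares of 0.803% and 0.669% were below the 1.13% median of the cleavage-stage genes. A low MERVL level is what the reporter sort selected for, so the distance to GFP-positive cells is no finding. With the carry-over subtracted, both were lower than in uninduced cells, which follows from their shares under the 1.135% taken off.

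In all, 5 families were at least 2-fold higher, but only those with at least 5 CPM and no overlap between the groups are named. Of those, the next by size were the simple repeats (CCG)n and (CAGGC)n, higher by 0.66 and 0.65. They did not pass the threshold with gene totals alone (0.06 in both). RLTR6B_Mm, an ERV1 repeat, was higher by 0.55 and ERVB4_2-LTR_MM, an ERVK repeat, by 0.49, but with gene totals alone they stood at -0.04 and -0.10. The largest fall among the named families was that of tRNA-Ser-TCA(m), with no read in GFP-negative cells and 16116 and 17565 in uninduced cells. It had 0 and 1 read in GFP-positive cells and 9957 and 12114 in induced unsorted cells. L1_Mm, a LINE-1 family, had 109 and 105 CPM in GFP-negative cells and 876 and 869 CPM in uninduced cells (-3.03 ± 0.06), with a smaller change of -1.43 in the parallel comparison. IAPLTR4_I, an interior of an IAP retrovirus, had only 28 and 22 reads in GFP-negative cells and 99 and 120 in uninduced cells. It fell by 3.31 ± 0.22 on the log2 scale, against -0.83 in the parallel comparison. Over all families the difference was above 0 for 6.13% and below 0 for 44.5%, or 25 and 577 families under every scaling. For both L1_Mm and IAPLTR4_I the difference between the comparisons passed (adjusted p = 7.73e-16 and 1.88e-08) and did so under every scaling. The shares of repeats and pseudogenes differ between the tables in the same direction, and their part in these falls was not tested.

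The pluripotency list split almost evenly between the directions, where 43.6% of all genes were higher and 34.2% lower. Of 34 members, 15 were higher and 17 lower (median -0.13), and 12 and 17 held under every scaling. The parallel comparison had a like split, with 15 higher and 18 lower (median -0.3). The difference from the parallel comparison was above 0 for 21 and below 0 for 4, where 20.6% and 9.87% of all genes were. Pou5f1, the OCT4 gene at the centre of the network, had 1275 and 1277 CPM in GFP-negative cells and 665 and 649 CPM in uninduced cells (0.96 ± 0.05), with a larger rise of 1.36 in the parallel comparison. Nanog had 957 and 983 CPM in GFP-negative cells and 1034 and 1063 CPM in uninduced cells, a difference that missed the threshold (-0.11 ± 0.06, adjusted p = 0.068) but passed it under the other 5 scalings (-0.28 to -0.70). Sox2, its partner, had 234 and 243 CPM in GFP-negative cells, against 336 and 342 CPM in uninduced cells, and fell by 0.51 ± 0.05. Esrrb and Zfp42, naive-state genes, fell by 0.44 and 0.48, and Fgf4, the growth factor that drives exit from the naive state, by 1.23. Klf4, a naive-state factor, did not pass (-0.08). These genes were expressed in every library of both groups, as the label of embryonic stem cells has it.

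Of the pluripotency list, 7 members were at least 2-fold higher, and for 6, Prdm14, Gbx2 and Dppa2 among them, the difference from the parallel comparison was above 0 under every scaling. Prdm14, a repressor of differentiation and of DNA methyltransferases, had 35.6 and 31.7 CPM in GFP-negative cells, against 9.74 and 8.69 CPM in uninduced cells (1.87 ± 0.10), with 0.58 in the parallel comparison. Gbx2, a homeobox target of LIF signalling, had 16.9 and 15.3 CPM in GFP-negative cells and 1.67 and 1.68 CPM in uninduced cells (3.26 ± 0.16), against 1.05 in the parallel comparison. The difference between the comparisons was 1.29 for Prdm14 and 2.22 for Gbx2 (adjusted p = 9.92e-07 and 1.04e-07). Dppa2, which promotes Dux in stem cells, was higher by 1.47 ± 0.06, of which 0.60 was in excess of the parallel comparison.

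Several formative genes had log2 fold changes of like size in both comparisons. Dnmt3b, a de novo DNA methyltransferase, had 261 and 258 CPM in GFP-negative cells, against 17.9 and 19.4 CPM in uninduced cells (3.80 ± 0.07). It was raised as much in GFP-positive over induced unsorted cells (3.93), and the difference of -0.13 did not pass (adjusted p = 0.43). Etv4, an ETS factor downstream of FGF, behaved alike (3.14 and 3.05), as did Dnmt3l, the cofactor of Dnmt3b (2.33 and 2.29), and Otx2, a factor of the exit from pluripotency, which fell (-2.67 and -2.49). The labels give the same medium for both tables. Of 19 formative members, 9 were higher and 7 lower (median 0.63, against -0.05 in the parallel comparison), and the difference between the comparisons was above 0 for 5 and below 0 for 1. Among all genes 43.6% were higher and 34.2% lower, and the difference was above 0 for 20.6% and below 0 for 9.87%.

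Targets of BMP and of ERK included genes that rose more than in the parallel comparison. Id3, an inhibitor of helix-loop-helix factors and a BMP target, had 26.5 and 27.6 CPM in GFP-negative cells, against 2.58 and 2.12 CPM in uninduced cells (3.53 ± 0.13; 1.17 in the parallel comparison). Smad6, an inhibitor of BMP signalling, and Bmp4 itself were higher by 2.45 ± 0.23 and 1.91 ± 0.19, against 0.35 and 0.02 in the parallel comparison. Id2 went the other way, with 8.23 CPM in each GFP-negative library and 21.9 and 24.8 CPM in uninduced libraries (-1.51 ± 0.10; 0.13 in the parallel comparison). Notum, an extracellular inhibitor of Wnt, rose in both comparisons (2.97 and 2.42). Over the 21 Nodal, BMP and Wnt targets tested, 7 were higher and 7 lower, where 43.6% and 34.2% of all genes were. Between the comparisons the difference was above 0 for 8 and below 0 for 1, where 20.6% and 9.87% of all genes were. Dusp6, a phosphatase that reads out ERK activity, had 12.8 and 14.2 CPM in GFP-negative cells and 4.84 and 5.18 CPM in uninduced cells (1.43 ± 0.14; -0.20 in the parallel comparison). Spry2, another ERK readout, was at -0.03 ± 0.06 and did not pass, and 6 of the 16 members of that list were higher and 5 lower. For that list the difference was above 0 for 7 and below 0 for 1. Myc, a target of several of these pathways, had 8.36 and 9.32 CPM in GFP-negative cells and 0.377 and 0.444 CPM in uninduced cells (4.41 ± 0.25), against 2.77 in the parallel comparison.

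A few stress genes gave opposite calls in the 2 comparisons. Ddit4, an mTOR inhibitor induced by p53, hypoxia and the integrated stress response, had 49.6 and 46.7 CPM in GFP-negative cells, against 20.1 and 17.7 CPM in uninduced cells (1.35 ± 0.07). It was lower in GFP-positive cells (122 CPM on average) than in induced unsorted cells (339 CPM), at -1.47, and the difference of 2.83 ± 0.09 passed (adjusted p = 3.06e-19). Hspa1a, the inducible HSP70 gene, had 2.39 and 2.30 CPM in GFP-negative cells, against 0.430 and 0.345 CPM in uninduced cells (2.58 ± 0.27). It averaged 115 CPM in GFP-positive cells and 508 CPM in induced unsorted cells, a log2 fold change of -2.14. Its neighbour Hspa1b shared the pattern (1.59 and -1.95); the 2 genes are near-identical and their reads may be split.

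Chaperone genes were more often higher than lower in both comparisons, where the medians over all genes stood at 0.14 and -0.09. Of 20 members, 14 were higher and 5 lower in GFP-negative cells (median 1.03), and 11 were higher and 6 lower in the parallel comparison (median 0.57). Hspd1, the mitochondrial chaperonin, rose by 1.97 and 1.88 in the 2 comparisons. Hspb8, a small heat shock protein, fell in both (-1.5 and -1.70). The difference was above 0 for 8 members, Hspa8 among them (0.76), and below 0 for 1, where 20.6% and 9.87% of all genes were.

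Genes of the integrated stress response moved in both directions. Of 30 members, 17 were higher and 9 lower (median 0.65, against -0.14 in the parallel comparison), and the difference was above 0 for 19 and below 0 for 1 (11 and 1 under every scaling). Among all genes the shares were 43.6% higher and 34.2% lower, and 20.6% and 9.87% for the difference. The transcription factor Atf4 fell, with 261 and 259 CPM in GFP-negative cells and 356 and 353 CPM in uninduced cells (-0.45 ± 0.05). Ddit3, the CHOP gene, and Ppp1r15a, which ends the response, fell by 0.67 and 0.77. Asparagine synthetase, Asns, had 968 and 995 CPM in GFP-negative cells and 355 and 349 CPM in uninduced cells (1.48 ± 0.06), which is 0.26 above the 1.22 of the parallel comparison (adjusted p of the difference = 0.011). Trib3 and Chac1, late targets of the response, did not pass in GFP-negative cells (0.06 and 0.27) and were lower in GFP-positive than in induced unsorted cells (-1.65 and -1.76).

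Targets of p53 were higher more often than lower, where 43.6% of all genes were higher and 34.2% lower. Of 28 members, 19 rose and 6 fell, with a median of 0.69; under every scaling the counts were 13 and 6, and with gene totals alone 13 and 12. The parallel comparison had 11 and 11, with a median of -0.03. The difference was above 0 for 17 and below 0 for 2, where 20.6% and 9.87% of all genes were. Bbc3, the pro-apoptotic PUMA gene, had 26.7 and 26.5 CPM in GFP-negative cells, against 9.95 and 9.23 CPM in uninduced cells (1.47 ± 0.10; -0.04 in the parallel comparison). Btg2, an antiproliferative gene that is also an immediate early gene, had 74.1 and 73.4 CPM in GFP-negative cells and 29.1 and 25.6 CPM in uninduced cells (1.43 ± 0.07; -0.23). Gadd45a, a DNA damage gene, rose by 1.16 ± 0.14, with -0.43 in the parallel comparison. Other targets did not share this. Cdkn1a, the p21 gene, had 121 and 120 CPM in GFP-negative cells, against 178 CPM in each uninduced library, and fell by 0.57 ± 0.06, and Pmaip1, the NOXA gene, fell by 1.5 ± 0.09. Bax and Plk2 rose, by 2.14 and 2.91, and did so in the parallel comparison too (1.95 and 2.17). Phlda3, an inhibitor of AKT, was higher by 0.42 and turned to -0.17 with gene totals alone. Of 20 apoptosis genes, 11 were higher and 5 lower (median 0.61, against 0.31), and of 16 genes of the endoplasmic reticulum stress response, 10 were higher and 4 lower (0.38, against 0.14), with Xbp1, its transcription factor, lower in both comparisons (-1.02 and -1.73). With gene totals alone the apoptosis list had 8 higher and 8 lower, and the endoplasmic reticulum list turned to 6 higher and 9 lower (median -0.21).

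Immediate early genes were mostly lower, where 34.2% of all genes were lower and 43.6% higher. Of 25 members, 15 were lower and 3 higher, with a median of -0.80, and 21 were lower in the parallel comparison. Dusp1, a phosphatase of stress kinases, had 10.7 and 10.0 CPM in GFP-negative cells, against 49.9 and 47.7 CPM in uninduced cells (-2.23 ± 0.07; -2.12 in the parallel comparison). Klf10 and Jun fell by 1.85 and 1.29. Hypoxia genes resembled them, with 12 of 20 lower and 5 higher (median -0.59). In the parallel comparison 13 were lower and 3 higher (median -1.21). Bnip3, a mitophagy receptor, had 7.58 and 7.07 CPM in GFP-negative cells and 85.4 and 104 CPM in uninduced cells (-3.69 ± 0.09), and Vegfa fell by 1.64. Against that trend Hk2, the hexokinase of growing cells, had 479 and 468 CPM in GFP-negative cells and 212 and 206 CPM in uninduced cells (1.18 ± 0.06; -0.12 in the parallel comparison). Slc2a1, a glucose transporter, was higher by 0.52 ± 0.06 but stood at -0.07 with gene totals alone, and it was lower by 1.91 on the log2 scale in the parallel comparison. Of 22 glycolysis genes, 11 were higher and 10 lower, against 7 and 12 in the parallel comparison. Gapdh rose by 3.15 and 3.76 in the 2 comparisons.

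**Figure D4:**
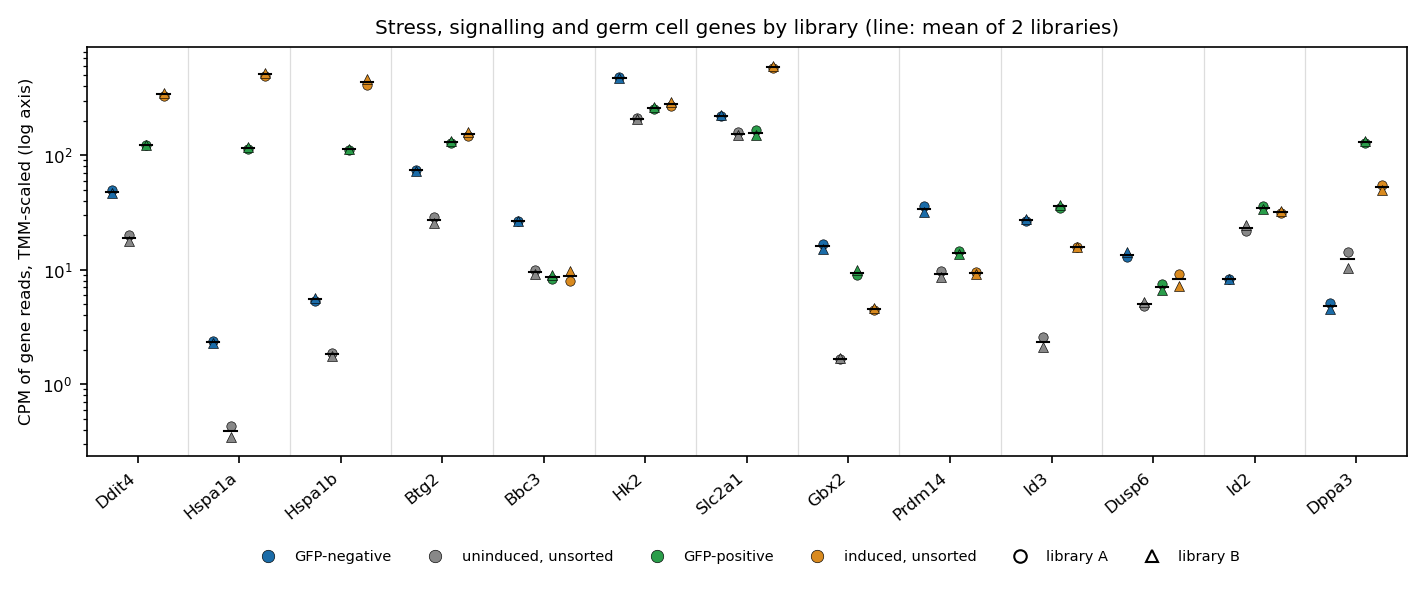
CPM of gene reads (log axis) of 13 stress, signalling and germ cell genes, chosen after their values were seen, in each of the 8 libraries, with lines at the means. Ddit4, Hspa1a and Hspa1b are higher in GFP-negative than in uninduced cells and lower in GFP-positive than in induced unsorted cells, while Dppa3 shows the reverse.

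Most members of the growth and housekeeping lists rose, with medians that were similar in both comparisons. Of 27 respiratory chain genes, 25 were higher and 1 lower (median 2.24), and the parallel comparison had the same 25 and 1 counts with a median of 2.29. Atp5o, a subunit of ATP synthase, had 644 and 647 CPM in GFP-negative cells, against 23.2 and 19.8 CPM in uninduced cells (4.91 ± 0.07; 5.15 in the parallel comparison). The G1/S list had 31 of 32 higher (median 1.49, against 1.73), the G2/M list 26 of 28 (1.21, against 1.36), the ribosomal protein list 30 of 40 (1.80, against 1.96), the splicing list 27 of 34 (1.09, against 1.10) and the cholesterol synthesis list 20 of 24 (0.93 in both). With gene totals alone, 27 were higher and 4 lower for G1/S, 22 and 4 for G2/M, and 25 and 2 for the respiratory chain. The same counts were 28 and 12 for ribosomal proteins, 19 and 11 for splicing, and 13 and 8 for cholesterol synthesis. Mcm7, a helicase subunit of replication, rose by 2.50 and 2.49 in the 2 comparisons, and Fdps, which makes farnesyl diphosphate, by 4.01 and 4.32. The difference between the comparisons was above 0 for 3 and below 0 for 10 of the G1/S genes, and below 0 for 5 of the respiratory chain genes. Mki67, a marker of cycling cells, fell in both (-0.65 and -0.59). The mitochondrially encoded list holds protein genes and the ribosomal RNAs mt-Rnr1 and mt-Rnr2, and its members were listed at 0 in every unsorted library. A member could pass the filter only through the sorted libraries, so the rise of all 6 tested was fixed in advance. Rps7, a ribosomal protein, had 645 and 511 CPM in GFP-negative cells and 8.98 and 10.1 CPM in uninduced cells, while 1009 of 1215 processed pseudogenes were lower; the part of reads shared with pseudogenes was not tested.

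**Figure D5:**
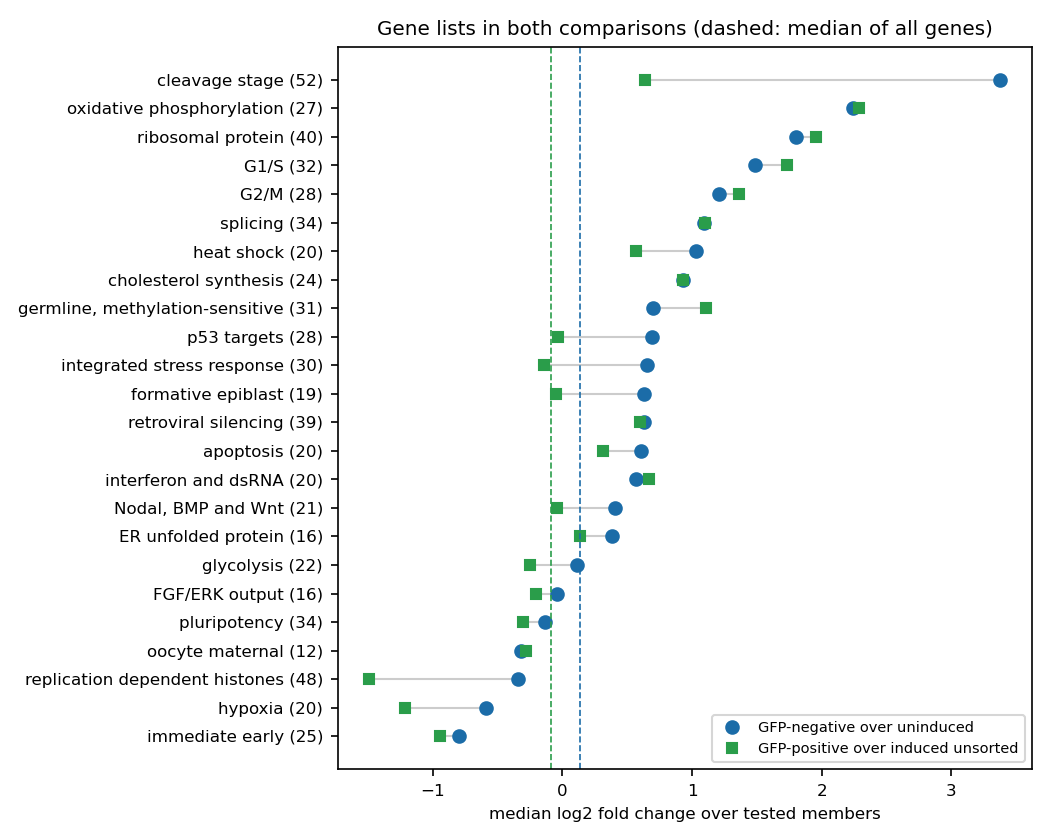
Median log2 fold change over the tested members of 24 gene lists (number of members in brackets) in GFP-negative over uninduced cells (circles) and GFP-positive over induced unsorted cells (squares); dashed lines mark the medians of all genes, 0.14 and -0.09. The pair of symbols lies furthest apart for the cleavage-stage list, at 3.38 and 0.64, and nearly coincides for splicing and cholesterol synthesis.

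Replication-dependent histones package newly made DNA, and their messages lack poly(A) tails. Of 48 tested, 6 were higher and 9 lower (median -0.34), where 43.6% of all genes were higher and 34.2% lower. Under every scaling 1 was higher and 9 lower, and with gene totals alone 1 and 16. The parallel comparison had 2 higher and 41 lower, with a median of -1.49. Hist1h1c, a linker histone, had 5.98 and 4.34 CPM in GFP-negative cells and 2.74 and 2.57 CPM in uninduced cells (0.96 ± 0.18), a call lost with gene totals alone (0.37).

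Most chromatin repressors of retroviruses were higher, a count that depended on the scaling. Of 39 members, 30 were higher and 6 lower (median 0.63, against 0.60 in the parallel comparison), where 43.6% of all genes were higher. With gene totals alone 19 were higher and 17 lower, the median being 0.03. The difference between the comparisons was above 0 for 15 members and below 0 for 4. Trim28, the corepressor KAP1, had 2487 and 2459 CPM in GFP-negative cells, against 611 and 575 CPM in uninduced cells (2.06 ± 0.06; 1.97 in the parallel comparison), and Dnmt1, the maintenance methyltransferase, rose by 2.00 and 2.26. Kdm1a, the histone demethylase LSD1, rose by 2.59 and 2.13. Mga, a subunit of a repressor of germline genes, fell in both (-1.57 and -1.79). Rif1, a silencer of Dux, fell in GFP-negative cells (-0.36 ± 0.06) and did not pass in the parallel comparison (0.03).

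Of 31 germline genes known to be silenced by DNA methylation, 18 were higher and 4 lower in GFP-negative cells (median 0.70), and 21 were higher and 4 lower in the parallel comparison (1.11). Among all genes 43.6% were higher and 34.2% lower in GFP-negative cells. With gene totals alone 12 of these germline genes were higher and 11 lower in GFP-negative cells. Hormad1, a meiotic chromosome axis protein, rose by 2.26 and 2.58. Stk31, a germ cell kinase, had 24.9 and 26.0 CPM in GFP-negative cells and 4.20 and 4.59 CPM in uninduced cells (2.53 ± 0.13), with 0.91 in the parallel comparison. Dppa3, the maternal factor Stella, moved in opposite directions, with 5.13 and 4.57 CPM in GFP-negative cells, against 14.4 and 10.3 CPM in uninduced cells. It fell by 1.34 ± 0.13 on the log2 scale, was higher by 1.33 in GFP-positive over induced unsorted cells, and the difference of -2.67 passed (adjusted p = 4.54e-13). Of the 12 oocyte genes tested, 2 were higher and 4 lower, against 5 and 3 in the parallel comparison. Interferon and double-stranded RNA genes had 15 of 20 higher and 4 lower (median 0.57, against 0.67), but 8 higher and 8 lower with gene totals alone. Irf7, an inducer of interferon, fell by 4.11 on the log2 scale from a level below 1 CPM in both groups.

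Markers of other cell types were present at summed levels that differed by list. The 11 mesoderm markers summed to 17.3 and 19.9 CPM in GFP-negative cells, against 8.55 and 8.54 CPM in uninduced cells. Their sums were 14.9 and 14.4 CPM in GFP-positive cells and 13.7 and 12.9 CPM in induced unsorted cells. The trophectoderm markers summed to 136 and 133 CPM in GFP-negative cells, against 108 and 110 CPM in uninduced cells. Of 13 tested, 5 were higher and 5 lower (median 0.62, against 0.28 in the parallel comparison). Krt19, an epithelial keratin, was among the lower ones (-4.11 ± 0.28). Primitive endoderm markers summed to 1970 and 1950 CPM in GFP-negative cells, against 536 and 515 CPM in uninduced cells. Their sums were 1660 and 1730 CPM in GFP-positive cells and 514 and 504 CPM in induced unsorted cells. The GFP-negative sum was carried by basement membrane genes that stem cells also express, such as Lamc1 (2.08 ± 0.06, and 1.79 in the parallel comparison). The defining factors Gata4, Gata6 and Sox17 stayed under 2 CPM in GFP-negative and uninduced cells. Fibroblast markers summed to 2200 and 2170 CPM in GFP-negative cells and 1530 and 1520 CPM in uninduced cells, mostly from Fn1, a matrix protein at 0.30 ± 0.06 that stood at -0.29 with gene totals alone. Of 11 fibroblast markers tested, 8 were higher and 2 lower (median 1.86, against 1.05 in the parallel comparison). Vim, an intermediate filament gene that stem cells also express, averaged 394 CPM in GFP-negative cells and 108 CPM in uninduced cells (1.86 ± 0.06; 2.18 in the parallel comparison), and Col1a1, a collagen, 2.50 CPM in GFP-negative cells and 0.359 CPM in uninduced cells. The part of these markers in the other results was not tested. Neuroectoderm markers summed to 83.4 and 80.0 CPM in GFP-negative cells and 86.1 and 84.5 CPM in uninduced cells. Of 6 blood markers in the tables, Hba-a1, Lyz2 and Ptprc had no read in either group.

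The 20 largest rises and 20 largest falls outside these lists lay largely among the features in which the tables differ. Among the rises, 11 were mitochondrial tRNAs listed at 0 in uninduced cells. Rps21 and Rpl38, ribosomal proteins, rose by 6.33 and 6.60, and by 6.47 and 5.81 in the parallel comparison. 5730507C01Rik, an uncharacterised gene, had 1767 and 1693 reads in GFP-negative cells and none in uninduced cells, which makes it at least 504-fold higher. The falls comprised 16 pseudogenes, the Y genes Ddx3y, Eif2s3y and Uty, and Aldoart1, a retrogene of aldolase. GFP-negative cells were at least 2910-fold lower for Ddx3y and at least 1940-fold lower for Eif2s3y, with the floor of 3 counts over the GFP-negative group. Both genes were also at 0 in GFP-positive cells and present in induced unsorted cells, at 96.8 and 93.9 CPM on average.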

How the data were processed

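RNA was measured by stranded poly(A) sequencing in 8 libraries of stable mouse stem cells, 2 per group. The deposited tables hold whole-number counts of reads per gene and per repeat family, per the file headers. Novoalign 2.8, DESeq2 and mm10 are named in the submitters' processing notes, and no source used here gives the strand setting of the counting. Counted reads ran from 14365741 to 53826590 a library, so low genes are less precisely measured in the unsorted ones. Columns matched groups but not single samples, so the libraries are called A and B, and 16 other columns of per-sample values were not used.

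The tables were joined on the row name. All 8 libraries were fitted together with edgeR 4.0.16 (R 4.3.3; quasi-likelihood test, TMM on gene reads, genes kept by filterByExpr at 10 counts, 15 in total), with Benjamini-Hochberg adjustment at 0.05 done separately over genes and repeat families. The SE was taken from the fold change and its F value. The test was checked on simulated counts. In them a small set of genes changed, evenly up and down, so the check could not cover the choice of scaling. The difference between the main and the parallel comparison was added after seeing the data. Alternatives were DESeq2 1.42.0, other scalings, filters, thinning, left-out libraries and a replicate block. Any member of a gene list could be named, and of other genes the 20 largest rises and 20 largest falls with at least 5 CPM and no overlap between the groups (10 each way for repeat families). The members and lists were chosen with earlier results of these data known.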

Additional observations from a re-analysis of the deposited data

How the results depend on the processing

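With gene totals alone as the scaling, 5064 genes were higher and 9120 lower (7768 and 6096 in the reported fit), 5 repeat families were higher (19 reported) and 248 list members were lower (148 reported). The repeat families higher numbered 12 with RLE factors, with the 4 libraries of the comparison alone and with library sizes that include repeats, and 8 with thinned sorted libraries and with DESeq2. With 1.135% of the GFP-positive rate subtracted, a share set from the same genes, 19 cleavage-stage members were higher and 14 lower (43 and 1 reported), and Zfp352 stood at -5.80, Tcstv3 at -4.39, Sp110 at -7.03, Usp17lc at -7.33, MERVL-int at -15.15, MT2_Mm at -2.58 and RLTR6B_Mm at -0.84. These directions largely follow from each member's own share of the GFP-positive level, above or below 1.135%. With gene totals alone, Trib3 stood at -0.53, Phlda3 at -0.17, Slc2a1 at -0.07, Fn1 at -0.29, RLTR6B_Mm at -0.04 and ERVB4_2-LTR_MM at -0.10. Leaving out each of the 2 GFP-negative and 2 uninduced libraries in turn gave 7440 to 7513 genes higher, 5302 to 5680 lower, and 41 to 43 cleavage-stage genes higher. DESeq2 gave 6375 genes higher and 6379 lower. Libraries of the 2 groups share only an index: their deviations had a correlation of 0.077 over 11191 genes, and a replicate block on it gave 7738 genes higher and 6039 lower, 43 cleavage-stage members higher and no lost call among the named genes. The cause of these shifts was not tested. Induction, sort and table cannot be told apart, each group has 2 libraries, and the shallower unsorted libraries limit genes near 0.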

Other observations

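Of 11369 genes with at least 5 CPM, 32 were higher in GFP-negative than in uninduced cells and lower in GFP-positive than in induced unsorted cells under every scaling, 9 of them with a GFP-negative mean above the GFP-positive one. The genes named here were chosen after their values were seen. Lck, a tyrosine kinase best known from T cells, averaged 15.9 CPM in GFP-negative cells, against 5.35 CPM in uninduced cells (log2 fold change 1.57; -0.57 in the parallel comparison). Gli2, a transcription factor of Hedgehog signalling, averaged 63.3 CPM in GFP-negative cells, against 32.3 CPM in uninduced cells (0.97; -0.35), and Rara, a retinoic acid receptor, 31.6 CPM against 16.5 CPM (0.94; -0.39). Chga, a granin of secretory vesicles, averaged 13.1 CPM in GFP-negative cells, against 4.84 CPM in uninduced cells (1.45; -1.17). For these 4 genes the GFP-negative mean also lay above the GFP-positive one.

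The reverse was seen for 7 genes, among them Gm5117 and Zfp51, both high in GFP-positive cells. Gm5117 averaged 6.65 CPM in GFP-negative cells, against 24.7 CPM in uninduced cells (-1.90; 1.21 in the parallel comparison), and 921 CPM in GFP-positive cells. Zfp51, a zinc-finger gene, averaged 17.2 CPM in GFP-negative cells, against 24.8 CPM in uninduced cells (-0.53; 1.21). Both were thus lower in GFP-negative than in uninduced cells, as Dppa3 was, whereas most cleavage-stage genes were higher.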
